A study of Mus musculus with 8 samples.

Results

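In mouse pre-B cells given nuclear Ikaros, 2200 stretches of accessible chromatin still had a peak after 30 min but none after 2 h. They were chosen by merging the overlapping peaks of all 8 ATAC-seq lists into 174718 regions and taking those with a peak in both 0 h lists and both 30 min lists and in neither 2 h list. Whether a region had a peak at 1 h was left free. The number rests on single lists: it was 4126 without 30 min replicate 2, 4348 without 2 h replicate 1 and 3784 without 2 h replicate 2. The members made up 1.26% of all merged regions and 3.97% of the 55478 regions that had a peak in both 0 h and both 30 min lists. Of those 55478 regions, 49546 (89.3%) kept a peak in both 2 h lists and 3732 (6.73%) had one in 1 of the 2. A further 6464 regions had a peak in both 0 h lists and in no 30 min or 2 h list and are called closed by 30 min here. Members, regions kept to 2 h and regions closed by 30 min were therefore defined by the presence of peaks, and that presence is a description and not a result.

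ATAC-seq measures accessible DNA through the sites at which the Tn5 transposase inserts adapters, and here only short fragments from nucleosome-free DNA were used. B3 is a mouse pre-B cell line, derived from a lymphoma, and all 8 libraries came from B3 cells transduced with Ikaros-ERt2, a fusion of Ikaros (IKZF1) to a modified estrogen receptor domain that 4-hydroxytamoxifen (4-OHT) moves into the nucleus. There were 2 replicates each of untreated cells (0 h) and of cells treated with 4-OHT (500 nM), harvested at 30 min, 1 h and 2 h. The labels do not say whether replicates were separate cultures, so p-values measure only the spread between these libraries. The 0 h cells had no 4-OHT, and the labels do not say whether they were given its solvent. No cells without Ikaros-ERt2 were treated, so what Ikaros did and what 4-OHT or the solvent did cannot be told apart.

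Ikaros is a zinc finger transcription factor of lymphoid cells that is needed for B cell development and is often lost or mutated in B cell acute lymphoblastic leukemia. It binds DNA at a GGGAA core and recruits the nucleosome remodelling and deacetylase complex NuRD, which moves nucleosomes and removes acetyl groups from histones. In pre-B cells it is known to limit proliferation and to silence surrogate light chain genes, whose products form the pre-B cell receptor.

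Each window below is 200 bases of GRCm38 centred on the highest 0 h summit of a member, with each GGAA and each GGGA in capitals, on whichever strand they lie. On the plus strand a match to the other strand reads TTCC or TCCC. The study counts these words as Ikaros motifs, and they are called core words here. They are shorter than the GGGAA core, so a core word need not be an Ikaros site. Overlapping matches are counted separately. The first 5 windows are shown because they hold the 2 strongest members, by mean percentile of peak strength over the 0 h and 30 min lists, the member with the largest difference downwards and the strongest members near a start site and near a listed gene. The Vpreb1 and Vpreb2 windows, which lie at start sites of surrogate light chain genes, were chosen after their values were seen.
Strongest member, intron of Celf2, chr2:7013207-7013406, plus strand: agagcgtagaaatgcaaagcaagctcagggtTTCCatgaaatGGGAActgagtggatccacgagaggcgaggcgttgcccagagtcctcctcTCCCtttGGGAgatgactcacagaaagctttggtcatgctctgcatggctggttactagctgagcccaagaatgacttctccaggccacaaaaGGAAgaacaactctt
Second strongest member, nearest start site Sstr4, chr2:148336032-148336231, plus strand: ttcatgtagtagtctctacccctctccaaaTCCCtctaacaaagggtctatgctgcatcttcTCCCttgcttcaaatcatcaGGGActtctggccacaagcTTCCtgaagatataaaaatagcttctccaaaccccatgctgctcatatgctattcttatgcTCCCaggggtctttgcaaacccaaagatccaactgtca
Largest difference downwards at 30 min, nearest start site Atp13a3, chr16:30447744-30447943, plus strand: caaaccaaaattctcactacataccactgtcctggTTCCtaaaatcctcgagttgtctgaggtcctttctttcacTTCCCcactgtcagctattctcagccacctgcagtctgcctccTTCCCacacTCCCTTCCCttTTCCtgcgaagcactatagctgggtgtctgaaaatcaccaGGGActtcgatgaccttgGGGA
Strongest member near a start site, Mrgpra1, chr7:47354244-47354443, plus strand: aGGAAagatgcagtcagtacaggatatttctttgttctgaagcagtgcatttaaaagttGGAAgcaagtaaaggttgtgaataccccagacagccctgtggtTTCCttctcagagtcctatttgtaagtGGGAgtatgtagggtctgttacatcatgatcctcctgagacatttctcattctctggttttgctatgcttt
Strongest member near a listed gene, intron of Notch1, chr2:26492976-26493175, plus strand: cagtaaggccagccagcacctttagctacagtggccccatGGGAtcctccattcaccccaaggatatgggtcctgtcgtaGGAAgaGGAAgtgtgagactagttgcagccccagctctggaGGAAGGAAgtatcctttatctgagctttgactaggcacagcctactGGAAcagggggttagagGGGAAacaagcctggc
Start site of Vpreb1, chr16:16869242-16869441, plus strand: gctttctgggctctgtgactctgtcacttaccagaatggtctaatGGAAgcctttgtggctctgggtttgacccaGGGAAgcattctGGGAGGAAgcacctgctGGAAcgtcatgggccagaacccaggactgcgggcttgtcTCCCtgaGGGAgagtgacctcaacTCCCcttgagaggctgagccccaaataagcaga
Start site of Vpreb2, chr16:17980233-17980432, plus strand: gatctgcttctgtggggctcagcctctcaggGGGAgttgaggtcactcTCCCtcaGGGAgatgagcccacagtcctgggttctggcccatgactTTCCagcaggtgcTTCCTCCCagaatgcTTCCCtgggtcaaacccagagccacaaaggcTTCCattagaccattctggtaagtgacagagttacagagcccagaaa
The Atp13a3 window, in which peak strength differed most between 0 h and 30 min, held 11 core words, several of them side by side. The members at Akap13, Prkce, Carmil1, Spsb1 and Galnt2, next in size of the difference downwards, held 5, 2, 6, 7 and 4. The median member held 5. The Vpreb1 and Vpreb2 windows each held 9 and matched at 190 of 198 bases when one was turned to its reverse complement, so reads from these near-identical genes may be split or shared between them.

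The lists held 85903 to 103897 peaks each, with 11 to 14 fragments at the summit of the median peak and a background of 0.26 to 0.405 fragments per base, which stands for the depth of a library. Start sites of 7 of 10 B lineage markers had a peak within 1 kb in all 8 lists, among them Cd79a, Cd79b, Ebf1, Pax5, Igll1, Blnk and Il7r. The same held for 1 of 8 T cell markers (Lck), 0 of 8 myeloid markers and 0 of 6 erythroid markers. In the 2 h lists the weakest peaks at the library background had 4 fragments. The lack of a 2 h peak thus means that no excess was detected at this depth, not that the site was shut.

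The rule left little margin for some members. The weakest of the 4 peaks that admitted a member had a median −log10 q of 4.13, from 1.31 to 23.4, and 107 members (4.86%) had a weakest peak under 2. Just outside the rule, the only 2 h peak of the 3732 regions with a peak in 1 of 2 lists had a median −log10 q of 5.55, from 1.304 to 31.5, and a median of 8 fragments at its summit. Peaks of a −log10 q of at least 5 in all 4 lists were present in 756 members (34.4%).

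Members were of middling strength before Ikaros entered the nucleus. Strength is given as the percentile of the peak's fold over local background among all peaks of the same list. The median member stood at percentile 54.2 and 49.4 in the 0 h libraries, with 15 and 11 fragments at the summit. Regions kept to 2 h stood at 71.0 and 68.5, and regions closed by 30 min stood at 35.7 and 33.1. Members thus lay between the regions that closed sooner and those that stayed open. The classes were set by whether peaks were called, and weak peaks miss a call more easily. This order is therefore a description and not a result. The share of regions that were members was 8.47% of the 2078 regions at percentile 0 to 20 at 0 h, 5.37% at 40 to 60 and 1.29% of the 17015 at 80 to 100. Members were therefore found at every strength, 219 of them at percentile 80 to 100.

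At 30 min, when each member by definition still had a peak in both lists, that peak was weaker in the median member. The median member stood at percentile 32.3 and 26.8, with 9 and 8 fragments at the summit, against 54.2 and 49.4 at 0 h. All regions with a peak in these 4 lists had a median of 68.8 and 66.0 at 0 h and of 71.4 and 67.5 at 30 min. The median difference of 30 min minus 0 h was −20.1 points among members, with quartiles of −35.9 and −4.27, and 1.88 points among all 55478 regions. In recovered summit fragments over library background, the median member had 0.653 times its 0 h level and the median of all regions was 1.00 times. A lower mean percentile at 30 min was seen in 1784 members (81.1%) and in 41.8% of all regions. The regions with a peak in 1 of 2 lists at 2 h lay between, with a median difference of −9.88 points. The difference went with strength at 0 h. The 176 members at percentile 0 to 20 at 0 h had a median of 4.95 points, the 554 at 20 to 40 had −4.03, the 671 at 40 to 60 had −20.6, the 580 at 60 to 80 had −35.9 and the 219 at 80 to 100 had −49.4. All regions in the same bins had 20.3, 13.6, 5.53, 1.75 and −0.50 points, so the weakest members were not lower at 30 min in the median, while in each bin the members lay below all regions.

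**Figure D1:**
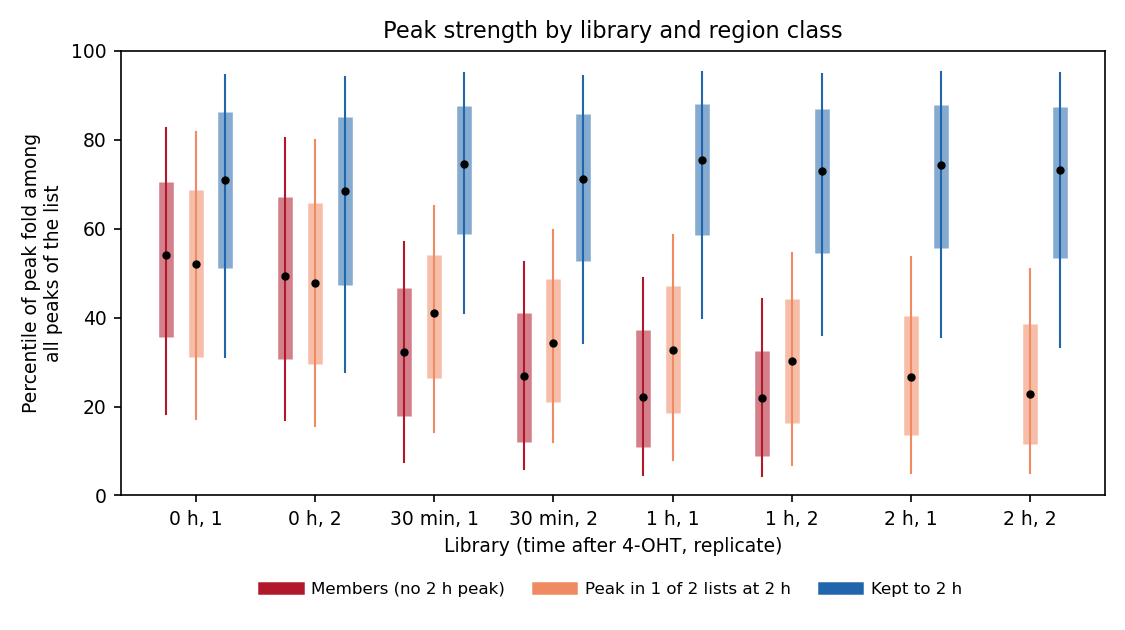
Percentile of the peak's fold among all peaks of its list (y axis) in each library (x axis, time after 4-OHT and replicate) for members, regions with a peak in 1 of 2 lists at 2 h, and regions kept to 2 h. Points are medians, thick bars the middle 50% and thin lines the middle 80% of the regions that had a peak. Member medians go from 54.2 and 49.4 at 0 h to 32.3 and 26.8 at 30 min, while regions kept to 2 h stay at 68.5 or above.

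Both 30 min libraries lay below both 0 h libraries in 1279 members (58.1%), against 21.3% of all regions with a peak in these 4 lists. Both lay above in 151 members (6.86%), against 30.8% of all regions. On summit fragments over background, 1374 members (62.5%) were lower without overlap and 107 (4.86%) higher, against 26.4% and 23.9% of all regions. Members were chosen for having no 2 h peak, while 89.3% of all these regions kept one in both 2 h lists. Lower values of members than of all regions at 30 min are thus not independent of the rule.

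**Figure D2:**
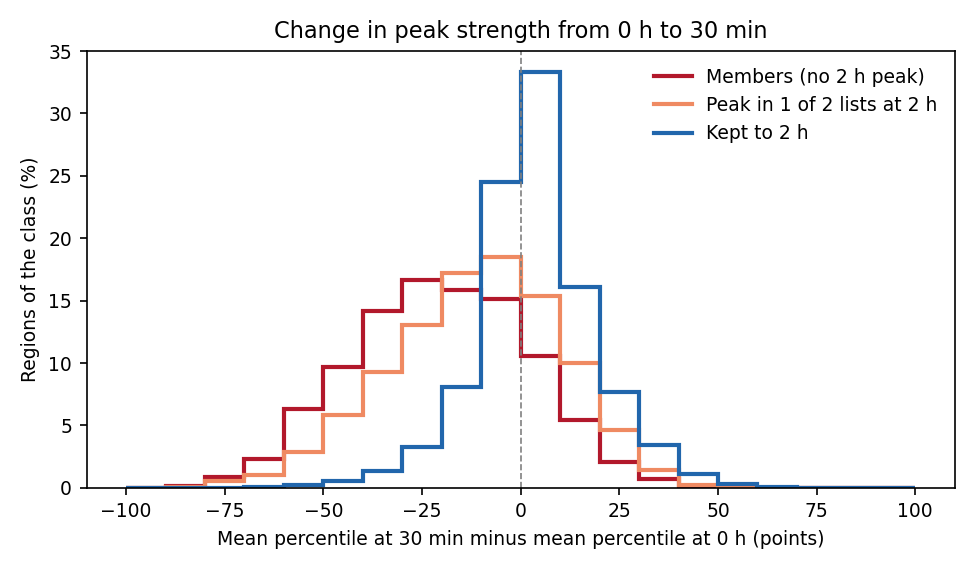
Distribution of the difference in mean percentile, 30 min minus 0 h (x axis, points), as the share of regions in each class (y axis, %), in bins of 10 points. Members are centred near −20.1 points and regions kept to 2 h near 2.66 points, with a wide overlap between the classes.

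A test of single regions did not reach the threshold. In the limma fit of normal scores of the percentiles over 55478 regions, 0 members and 0 of all regions (0%) were lower or higher at an adjusted p under 0.01, and the lowest adjusted p was 0.0738. With no adjustment, 943 members were lower and 49 were higher at p under 0.05, which is 42.9% and 2.23% of members against 9.11% and 10.2% of all regions. The median score difference was −0.61 among members, with a median standard error of 0.29, and 0.09 among all regions. As above, the rule that asked for no 2 h peak bears on each such comparison with all regions. With a mean trend and a robust prior, limma called 84 members lower and 0 higher (3.82% and 0% of members), against 0.723% and 0.0919% of all regions. On log2 summit fragments over background it called 249 lower and 0 higher (11.3% and 0%), against 1.96% and 0.0991%. Whether single members reached the threshold thus depended on the scale and the variance model, while none of these settings called a member higher at 0.01.

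The 1 h lists were not used by the rule and give a later view of the same regions. At 1 h, 542 members (24.6%) had a peak in both lists, 848 (38.5%) in 1 list and 810 (36.8%) in neither. Of the 55478 regions, 91.2% had a peak in both 1 h lists and 2.56% in neither. Single lists held a peak for 1064 members (48.4%) and for 868 (39.5%). A peak in at least 1 of the lists was found for 63.2% of members (95% Wilson interval 61.1% to 65.2%, which covers counting error only), compared with 99.6% of regions kept to 2 h, 88.9% of those with a peak in 1 of 2 lists at 2 h and 10.4% of those closed by 30 min. Members with neither, 1 or both 1 h peaks had a median percentile of 48.1, 50.7 and 53.8 at 0 h and of 26.4, 29.7 and 36.5 at 30 min.

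**Figure D3:**
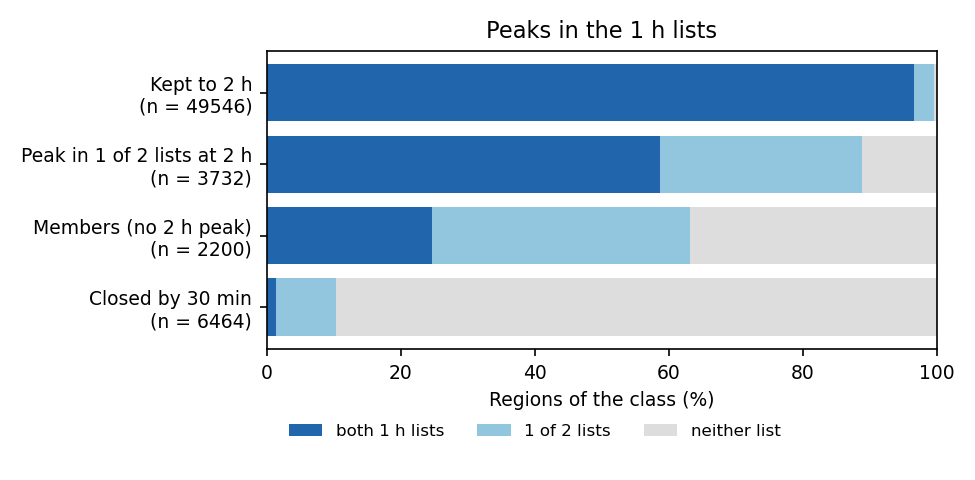
Share of regions (x axis, %) with a peak in both, 1 or neither of the 1 h lists, by class (y axis, with the number of regions). Members are split into 24.6%, 38.5% and 36.8%, between the regions kept to 2 h, 96.6% of which are in both lists, and those closed by 30 min, 89.6% of which are in neither.

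The 542 members with a peak in both 1 h lists, which passed only because their peaks were strong enough to be called, stood lower again at 1 h. Their median percentile was 53.8 at 0 h, 36.5 at 30 min and 26.4 at 1 h, while the medians of all 50609 regions with a peak in these 6 lists were 68.3, 71.4 and 72.2. Both 1 h libraries lay below both 30 min libraries in 214 of the members (39.5%) and above in 35 (6.46%), against 21.4% and 20.4% of all regions. Compared with 0 h, 351 (64.8%) lay below and 23 (4.24%) above, against 23.9% and 37.5%. For 1 h against 30 min, limma called 0 members and 0% of all regions in either direction at an adjusted p under 0.01, and with no adjustment 133 members were lower and 9 were higher at p under 0.05, where 5.14% and 3.93% of all regions lay. For 1 h against 0 h it called 0 at 0.01, and at 0.05 it called 171 members lower (31.5%) and 1 higher (0.185%), against 5.52% and 5.45% of all regions. On the score scale the median of all regions was 0.14 higher at 1 h than at 0 h, and the median difference of the 542 members was −0.78. These members also lack a 2 h peak by the rule, so lower values than in all regions are not independent of it.

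Most members lay away from promoters. A start site was within 1 kb of 367 members (16.7%), against 28.1% of all regions with a peak in both 0 h and both 30 min lists. The share was 29.4% among regions kept to 2 h and 11.7% among those closed by 30 min. Regions with a peak in 1 of 2 lists at 2 h were like members, at 17.7%. The gap to regions kept to 2 h went with strength at 0 h. At percentile 20 to 40 the shares were 20.6% of members and 19.1% of those regions. At 80 to 100 they were 9.13% and 41.9%. By the position of the 0 h summit, 52.8% of members were in introns, 40.5% between genes, 4.73% in untranslated or non-coding exons and 1.91% in coding exons. The median distance to a protein-coding start site was 20029 bp for members, 13122 bp for regions kept to 2 h and 25674 bp for those closed by 30 min. For regions with a peak in 1 of 2 lists at 2 h it was 20678 bp. The median width was 194 bp for members, 190 bp for regions with a peak in 1 of 2 lists at 2 h and 228 bp for regions kept to 2 h. A width spans the peaks of all lists, and members have no 2 h peak by the rule. The narrower members are therefore not a result apart from the rule. A region kept to 2 h lay within 20 kb of 1694 members (77.0%), and another member within 20 kb of 181 (8.23%). On the chromosomes other than Y, which held 2, members made up 3.04% (chromosome 16) to 4.63% (chromosome 19) of the regions.

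Core words were denser in members than in regions that stayed open and sparser than in those that closed first. In the 200 bp around the 0 h summit, members held 2.82 ± 1.24 core words per 100 bp (SD over 2200 regions, which are not replicates). Regions kept to 2 h held 2.21 ± 1.18, regions with a peak in 1 of 2 lists at 2 h held 2.67 ± 1.19 and regions closed by 30 min held 3.22 ± 1.25. The longer words GGGAA and TTCCC followed the same order, at 0.395 per 100 bp in members, 0.289 in regions kept to 2 h and 0.471 in those closed by 30 min. The order was the same among regions of like strength: at percentile 60 to 80 at 0 h, members held 3.03, regions kept to 2 h 2.24 and regions closed by 30 min 3.62 words per 100 bp. Without a start site within 1 kb, 1833 members held 2.79, 34984 regions kept to 2 h held 2.095 and 5708 regions closed by 30 min held 3.19. GC content of these distal groups was 49.2%, 49.5% and 49.5%.

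**Figure D4:**
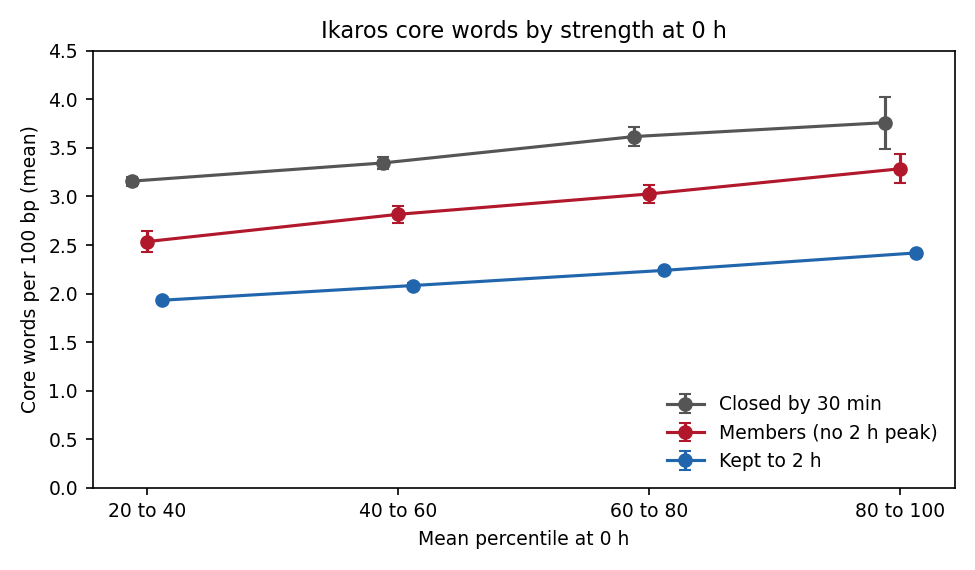
Mean number of core words per 100 bp of the summit window (y axis) by mean percentile at 0 h (x axis) for regions closed by 30 min, members and regions kept to 2 h. Bars are 95% intervals of the mean over regions and do not describe replicates. In each bin the members lie between the other classes, for example at 3.03 between 3.62 and 2.24 at percentile 60 to 80.

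Members with more core words were stronger at 0 h and had a larger difference downwards from 0 h to 30 min. The 421 members with 0 to 3 words had a median percentile of 40.9 at 0 h and a median difference of −11.2 points, and 43.5% were lower without overlap, against 10.2% of all regions with as many words. The 465 members with 8 or more words had a percentile of 58.3 and a difference of −27.4 points, and 69.9% were lower without overlap, against 41.6%. Over all regions the median differences in the same bins were 5.67 and −4.13 points, and 2.08% and 7.52% of the regions were members. At like strength the gap between the word bins was smaller. At percentile 40 to 60 at 0 h, members with 0 to 3 words had −18.8 points and those with 8 or more had −22.7, and at 60 to 80 they had −34.3 and −37.2. The 1279 members lower without overlap held 3.01 ± 1.20 words per 100 bp and the 151 higher without overlap, which were weaker at 0 h with a median percentile of 21.7, held 2.19 ± 1.18.

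Other words were counted in the same classes. The word of CTCF, an insulator protein that holds chromatin loops, was present in 32 members (1.45%), in 8.48% of all regions with a peak in both 0 h and both 30 min lists and in 0.480% of regions closed by 30 min. The palindrome of EBF1, the factor that specifies the B lineage, was searched as TCCC and GGGA with 2 free bases between them and was in 125 members (5.68%), against 2.45% of all regions and 6.28% of those closed by 30 min. It holds 2 core words by its own letters. GAGGAAG, the word of PU.1, which also holds GGAA, was in 20.05% of members, 14.3% of all regions and 22.6% of those closed by 30 min. TGTGGT, bound by RUNX factors, was in 26.5%, 23.8% and 31.7%, and the E-box words CAGCTG and CAGGTG were in 18.8% and 13.4% of members in 17.2% and 16.3% of all regions, and in 21.2% and 13.3% of those closed by 30 min. TGACTCA (AP-1) was in 6.05% of members, 5.04% of all regions and 5.75% of those closed by 30 min, and TGTTTAC (forkhead factors) was in 1.23%, 2.13% and 1.42%. All words were searched on both strands of the summit window, except that of CTCF, which was searched in the whole region. A match describes letters and not binding.

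The 8 strongest members, by mean percentile over the 0 h and 30 min lists, stood at percentile 84.3 or above in both 0 h libraries. The region in an intron of Celf2, an RNA-binding regulator of splicing, had 54 and 41 fragments at 0 h, 26 and 20 at 30 min and 10 and 9 at 1 h. The one 59052 bp from the start site of Sstr4, a somatostatin receptor, had 78 and 60, then 18 and 22, and at 1 h a peak of 4 fragments in replicate 2 only. The one in a non-coding exon of 1700047F07Rik had 64 and 41, then 16 and 19, then 6 and 5. In these 3 the fragments at successive times did not overlap. The others of the 8 strongest lay near Mocos (in an intron of Elp2), Zranb2, Intu, Mrgpra1 and Adgrf5, and all 8 were lower at 30 min than at 0 h without overlap, to 0.263 to 0.720 times the fragments over background, where 21.3% of all regions were lower in this way. Their adjusted p in limma was 0.0774 to 0.630.

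The largest differences downwards were in strong peaks that stood close to the limit of calling at 30 min. The region between genes near Atp13a3, a P-type ATPase of polyamine transport, stood at percentiles 89.0 and 90.6 at 0 h and at 4.30 and 1.78 at 30 min, with 46 and 36 and then 7 and 6 fragments, and had no 1 h peak. In an intron of Akap13, which anchors protein kinase A, a member stood at 91.3 and 88.7 and then at 5.01 and 5.86. In an intron of Prkce, which encodes protein kinase C epsilon, another stood at 89.0 and 93.2 and then at 3.76 and 15.6. These and the members in introns of Carmil1 and Galnt2 and near Spsb1 were the 6 of the largest difference, at 79.1 to 86.8 points lower and 0.107 to 0.192 times the fragments over background, all with an adjusted p of 0.0738 in limma. None of the 6 had over 8 fragments in a 1 h list.

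The largest differences upwards were in weak peaks. A member whose nearest start site was that of Tgfb2, a transforming growth factor, had 6 and 6 fragments at 0 h, 21 and 10 at 30 min, and 5 in a single 1 h list. One in an intron of Tmcc3 had 9 and 5, then 17 and 17, then 5 and 8. One 1308 bp from Hoxb9, a homeobox gene of body patterning, had 7 and 4, then 10 and 13, then 9 in 1 list. In these the 30 min libraries were the highest of all, and the peak was gone at 2 h. The members near Car2, Txnrd1 and Grik2 complete the 6 largest, which were 35.6 to 44.9 points higher with an adjusted p of 0.109 to 0.150 in limma.

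Of the 6 members that were strongest at 1 h, 4 overlapped between 0 h and 30 min. Over all regions 21.3% were lower at 30 min without overlap and 30.8% higher, and over all members 58.1% and 6.86%. Near St3gal1, a sialyltransferase gene, 8 and 13 fragments at 0 h were 13 and 15 at 30 min and 13 and 10 at 1 h. Near Rflnb there were 44 and 31 fragments at 0 h, 18 and 10 at 30 min, and 12 and 12 at 1 h. Near Dusp5, a phosphatase gene of the ERK pathway, 11 and 13 became 5 and 8 at 30 min and 12 and 11 at 1 h. The window of this member held 14 core words, and those near St3gal1 and Rflnb held 3 each. The members near Far1, Pitrm1 and Zbtb10 were the others of the 6, and their libraries overlapped as those near St3gal1 did.

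By nearest start site, members were assigned to 1893 protein-coding genes, of which 1646 had 1 member, 237 had 2 or 3 and 10 had 4 or more. Tbl1xr1, a subunit of the NCoR corepressor complex that is deleted in some leukemias, had 6, spread from 23396 to 851393 bp away, among 36 regions with a peak in both 0 h and both 30 min lists. Of the 6 members, 4 were lower at 30 min without overlap, 1 overlapped and 1 was higher, and 4 had no 1 h peak. Over all regions 21.3% were lower without overlap and 30.8% higher, and over all members 58.1% and 6.86%. Counts as small as those in this paragraph do not set a gene apart. Limch1, an actomyosin regulator, had 5 members among 15 regions, all in its introns, with 4 lower. Sgms1, which encodes a sphingomyelin synthase, had 5 among 22, all in introns, with 4 lower and none without a 1 h peak. The intronic Sgms1 member at chr19:32285111-32285378 stood at 96.2 and 91.6 at 0 h, 41.04 and 68.7 at 30 min and 41.7 in a single 1 h list. Celf2, Dusp4, Nsmce3, Prkce, Smad3, Smad7 and Zfp386 shared the next place with 4 members each.

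Around 112 genes in lists chosen for pre-B cells and Ikaros, 19 members lay within 20 kb of a start site, of 511 regions with a peak in both 0 h and both 30 min lists there. That is 3.72%, against 3.97% over all regions, so the share of members near these genes was close to that elsewhere. The lists overlap, and they were made with the study's text known. In the paragraphs on these lists, counts of members lower without overlap stand against 21.3% of all regions and 58.1% of members, and they are too small to set a list apart. Of the regions near their genes, members were 6.25% for the pre-B cell receptor list, 3.81% for the B-lineage transcription factors, 8.89% for the interleukin 7 and cytokine list, 6.12% for NuRD subunits, 4.26% for the Notch pathway and T lineage, 2.94% for apoptosis and survival, 2% for adhesion and migration and 2.38% for genes that the study text names as repressed.

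Of the pre-B cell receptor list, 4 genes of 13 had a member nearby, 4 members among 64 regions, and all 4 were lower at 30 min without overlap. The surrogate light chain of the pre-B cell receptor is made by Vpreb1, Vpreb2 and Igll1. At the start site of Vpreb1, 5222 bp from that of Igll1, the member (chr16:16869207-16869487) had 79 and 43 fragments at 0 h and 20 and 17 at 30 min, and no peak at 1 h. At the start site of Vpreb2 (chr16:17980159-17980524) the values were 35 and 21 and then 9 and 8, also with no 1 h peak. In percentiles, which are taken over the local background, the Vpreb1 member stood at 69.7 and 53.7 and then at 16.4 and 17.9, and the Vpreb2 member at 81.2 and 72.2 and then at 36.0 and 28.3. Both groups of libraries were thus clearly apart, with 0.286 and 0.283 times the fragments over background at 30 min. The adjusted p in limma was 0.0945 and 0.0949. A member 4050 bp from the start site of Cd79b, the signalling chain Ig-beta, lay in an exon of Scn4a and had 58 and 42 fragments, then 14 and 13, then 13 and 8.

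Of the B-lineage transcription factors, 3 genes of 20 had 4 members among 105 regions within 20 kb, all lower without overlap. The member nearest Lef1, a factor of Wnt signalling expressed in pre-B cells, had 33 and 36 fragments at 0 h, 14 and 10 at 30 min and no peak at 1 h, and lay 3244 bp from the start site. Near Ikzf3, which encodes the Ikaros relative Aiolos, a member in an intron of Zpbp2 had 34 and 27, then 22 and 15, then 11 and 11. Near Ikzf1 itself, 18366 bp from the start site, the counts were 14 and 6, then 8 and 8, then 8 in 1 list. In percentiles these were 55.2 and 26.7 and then 18.4 and 20.6, a difference no larger than the gap between the 0 h libraries. No member lay within 20 kb of Ebf1, Pax5, Foxo1 or Myb, nor of any gene of the recombination (0 of 11 regions) and the cell cycle and Myc lists (0 of 73 regions).

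Of the interleukin 7 and cytokine list, 5 of 10 genes had 4 members among 45 regions, and 3 were lower without overlap. Within 100 kb the share was 5.67% of 141 regions. Socs3 and Socs2 encode inhibitors of JAK and STAT signalling. The member 5630 bp from Socs3 had 37 and 20 fragments, then 10 and 10, then 8 and 7. The one at the start site of Socs2 had 32 and 26, then 19 and 21, and no 1 h peak. Its window held 12 core words, and those near Socs3, Stat5b and Jak1 held 5, 5 and 7. The member between Stat5a and Stat5b, which encode the factors that act after the interleukin 7 receptor, had 21 and 18, then 9 and 15, and no 1 h peak. The member near Jak1, with 16 and 9 and then 11 and 8, overlapped between the times.

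In the remaining lists 1 to 3 genes had a member. In an intron of Notch1, the receptor that drives the T lineage, a member had 42 and 25 fragments, then 15 and 12, then 10 and 6. In an intron of Itga5, an integrin that binds fibronectin, a member had 24 and 24, then 12 and 8, then 11 and 10. In an intron of Bbc3, which encodes the cell death protein Puma, the counts were 21 and 14, then 13 and 17, then 11 in 1 list, and only the percentiles were apart. Near NuRD subunit genes, the member by Gatad2a was lower without overlap, at 21 and 18 and then 10 and 13, while those by Gatad2b and Hdac2 overlapped. The member at a start site of Lck had 15 and 13, then 11 and 19, and overlapped too.

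**Figure D5:**
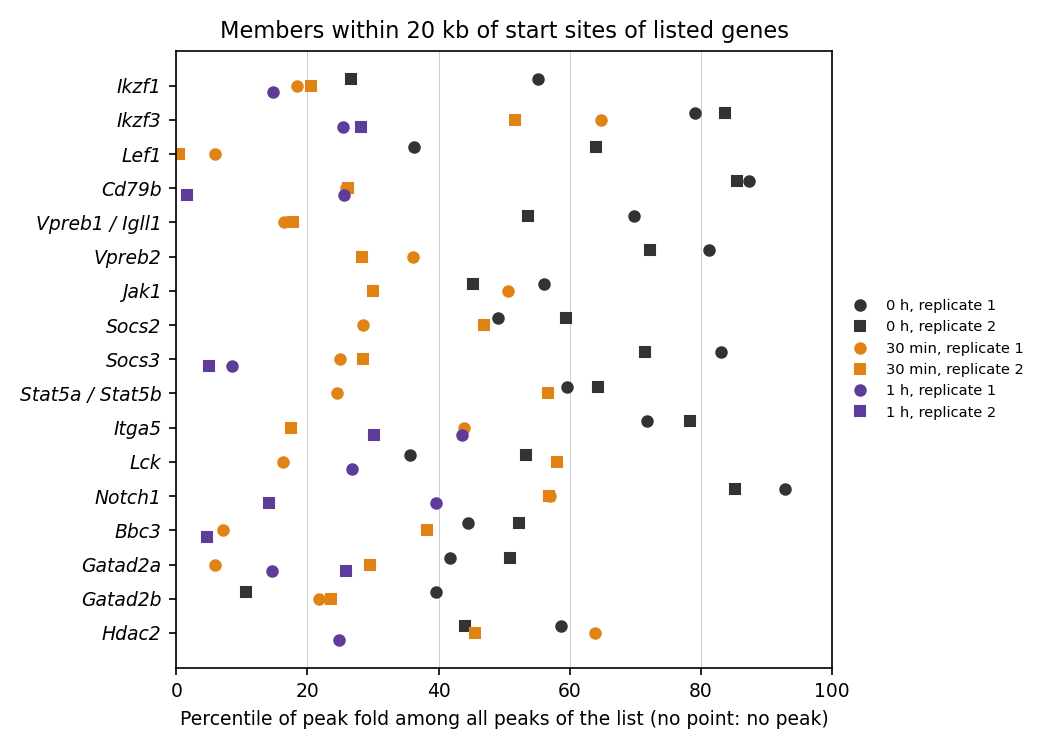
Percentile of the peak's fold among all peaks of its list (x axis) for the strongest member within 20 kb of a start site of each listed gene (y axis) in each library of 0 h, 30 min and 1 h. A missing point means no peak. At Cd79b both 0 h points lie above 85 and both 30 min points near 26, whereas at Lck, Jak1, Gatad2b and Hdac2 the 2 times overlap.

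At promoters, the strongest member was at the start site of Mrgpra1, a sensory neuron receptor gene, with 35 and 24 fragments, then 21 and 20, then 11 and 7. The member in a coding exon at the start site of Pigl, an enzyme of GPI anchor synthesis, had 49 and 33, then 21 and 15, then 13 and 15. The one 423 bp from Stam had 48 and 30, then 16 and 25, then 15 and 8. With the Zpbp2 member named above these were the 4 strongest within 1 kb of a protein-coding start site. All 4 were lower at 30 min without overlap, as were 21.3% of all regions and 58.1% of members. Their adjusted p in limma was 0.125 to 0.472. They were picked by their strength in these same 0 h and 30 min lists. The 367 promoter members held 3.00 ± 1.31 core words per 100 bp, close to the 2.79 ± 1.23 of distal members.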

How the data were processed

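The 8 ATAC-seq libraries, grouped by the time points in the labels, each came with a single list of nucleosome-free peaks. Per the processing notes of the submitters and the study's methods, the authors made reads with bcl2fastq 2.20.0, aligned them with BWA 0.7.17, handled them with SAMtools 1.9 and bedtools 2.27.1, corrected for the Tn5 insertion offset, selected short fragments and called peaks with MACS2 2.1.2 in each library alone. The notes name GRCm38 (mm10), and the peaks of all 21 chromosomes lie inside it, whereas the methods text names a human build. The deposited lists hold the fold of the fragment pileup over local background as a ratio, with −log10 p-values and −log10 q-values. Values of different lists are on no common scale, and the lowest −log10 q was 1.3 in each. A deposited score column repeats −log10 q as a whole number and was not used. An exclusion list was not used here, and no count model was fitted.

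Peaks overlapping by any amount were merged. A region took the highest fold, as percentile among all peaks of a list. Whole fragments at a summit were recovered from fold and p-value under a Poisson model (within 0.001 in −log10 p for 100% of peaks). The most frequent background of the weaker peaks stood for depth, and fragments were compared after division by it. Percentiles as normal scores were fitted with limma 3.58.1 (lmFit and eBayes, R 4.3.3, Benjamini-Hochberg adjustment over all regions fitted, threshold 0.01): 4 libraries for 30 min against 0 h, and 6 in 1 model for 1 h. The fit and the recovery were tested on simulated data. Libraries of 2 times do not overlap when both of one lie below, or above, both of the other. GENCODE M21 (basic) gave start sites, exons and introns, and RefSeq GRCm38 gave sequence. Alternatives were other peak thresholds, merging rules, ranks, fragments, a mean trend, a replicate block and leaving out each library.

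Named regions were the 8 strongest members, the 6 largest differences in each direction without overlap, the genes with most members (4 by the rule, 3 here since the next place was tied), the strongest member within 20 kb of each listed gene, the 4 strongest within 1 kb of a protein-coding start site and the 6 strongest at 1 h. The members and gene lists were chosen with earlier results of these data known. A few items, among them 1 sequence window, are not reported here.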

Additional observations from a re-analysis of the deposited data

Results flagged for a closer look

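A total of 151 members were higher in both 30 min libraries than in both 0 h libraries and then had no peak in either 2 h list, so that the direction at 30 min was opposite to that at 2 h. The difference between these directions was not tested, and the lack of a 2 h peak is part of the rule that chose the regions. Their median percentile was 21.7 at 0 h and 44.9 at 30 min, and the median summit held 6 fragments at 0 h and 9 at 30 min. On fragments over background, 83 of them were also higher without overlap. At 1 h, 39 had a peak in both lists, 68 in 1 and 44 in neither. They held 2.19 core words per 100 bp, and 30.8% of all regions were higher at 30 min in the same way.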

How the results depend on the processing

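The number of members, 2200, was 1831 to 2937 under 5 other settings for peaks and merging, and was 756 when a −log10 q of at least 5 was asked of the 0 h and 30 min peaks. Leaving out single libraries gave 2200 to 4348 members. The count was 4126 without 30 min replicate 2, 4348 without 2 h replicate 1 and 3784 without 2 h replicate 2, as fewer lists then had to fulfil the rule. The share with a peak at 1 h, 63.2%, was 73.3% for the 756 members and 39.5% to 75.7% without single libraries.

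In limma, members lower at 30 min than at 0 h numbered 0 in the reported fit, 249 on log2 summit fragments and 84 with a mean trend and robust prior. Among peaks with a −log10 q of at least 5 they numbered 67 of 756, and none was higher in any of these. Of all regions fitted, 0%, 1.96%, 0.723% and 0.833% were lower in the same order. The cause was not tested. For 1 h against 30 min every setting gave 0. For 1 h against 0 h, where 0 were called, 171 were lower and 1 higher at an adjusted p under 0.05, against 5.52% and 5.45% of all regions. At 0.01, 91 were lower when ranked among the regions fitted, 25 when ranked by −log10 p and 150 on fragments. With the mean trend 67 were lower, and 22 among peaks with a −log10 q of at least 5. Of all regions fitted, 2.07%, 0.437%, 5.45%, 3.22% and 3.45% were lower in the same order. The replicate block gave 0 calls among members in each comparison, against 0% of all regions fitted, and it changed no call. Between the replicate differences of 2 times, correlations over regions were 0.020 to 0.038. At each time, however, replicate 1 had the longer list and the higher background. The labels do not say whether equal replicate numbers belong together, and these values cannot decide it. Leaving out single libraries gave 0 calls throughout, and the lone sample left in a group was then assumed to vary like the other.

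The share lower at 30 min without overlap, 58.1% against 21.3% of all regions, was 63.9% when ranked among the regions fitted. On fragments it was 62.5% against 26.4% of all regions. It was 64.9% in members with a −log10 q of at least 5 and 96.1% in members with over 20 fragments in both 0 h lists. In the last, selecting on a high 0 h count favours a lower 30 min value, and 34.1% of all such regions were lower. The share higher, 6.86% against 30.8% of all regions, was 5.32%, 4.86%, 4.23% and 0.282% in the same order. On fragments 23.9% of all regions were higher. These 4 settings were chosen after seeing the data. No share of all regions is set beside the values for the fitted ranks or for a −log10 q of at least 5. The same holds for the 0.282%. These values are therefore not read as results about members. With start sites within 2.5 kb, 26.0% of members were at promoters, against 35.7% of all regions. The excess of core words over regions kept to 2 h, 0.613 per 100 bp, was 0.699 in whole regions, 0.701 in members with a −log10 q of at least 5 and 0.106 for GGGAA and TTCCC. Within 100 kb of the listed genes there were 60 members of 1613 regions (3.72%) in place of 19 of 511 (3.72%). Of the 61 named regions, 20 passed an adjusted p of 0.01 in at least 1 alternative, and 10, all with overlapping libraries, had a score difference of another sign in at least 1. These were −0.0857, −0.0261 and −0.0593 near Gatad2b when ranked among the regions fitted, when ranked by −log10 p and on fragments, and −0.0185 and −0.0958 near Zbtb10 in the first and last of these. Without single libraries the difference was −0.48 to 0.50 near Gatad2b, −0.19 to 0.29 near Zbtb10, −0.54 to 0.00078 near Jak1, −0.84 to 0.35 near Lck, −0.14 to 0.32 near Hdac2, −0.38 to 1.42 near Far1, −0.21 to 0.41 near Pitrm1, −0.66 to 1.36 at the Tbl1xr1 member that overlapped, −2.04 to 0.39 at that of Limch1 and −0.84 to 0.16 at that of Sgms1. At a median of 7 fragments in the weakest of its 4 peaks, a single member could pass or miss the rule by counting noise.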
